A study of Mus musculus with 12 samples.

Results

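The genes described here are 10 transcription factors and cofactors of the cardiac lineage, taken from the table by gene symbol: Gata4, Gata6, Nkx2-5, Tbx5, Tbx20, Mef2a, Mef2c, Mef2d, Hand2 and Myocd. All 10 were among the 13552 genes listed and all 10 passed the filter on low values with 11240 genes in total. RNA was sequenced from the hearts of 12 male mice of the C57BL/6 strain (C57BL/6J in the methods), 3 in each of 4 groups, 9 h after transverse aortic constriction (TAC), a surgical narrowing of the aorta that raises the pressure load on the left ventricle, or after a sham operation. Wild-type (WT) mice, which carry unmodified Bcl-xL, gave the groups WT sham (mice W1, W2 and W3) and WT TAC (W7, W9 and W10). Homozygous knock-in (KI) mice, in which serine 14 of the survival protein Bcl-xL is replaced by alanine and cannot be phosphorylated, gave KI sham (K1, K2 and K3) and KI TAC (K5, K6 and K7). The knock-in was made in the germ line, so every cell of these animals carries it, and the mice were backcrossed to C57BL/6J. WT males for the surgery were purchased and are not described as littermates of the KI mice, so origin and genotype cannot be told apart. A change of a single residue leaves no trace in gene-level values, so genotype could not be checked in these data. The methods give an age of 8 to 10 weeks at TAC or sham surgery.

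GATA4, NKX2-5, TBX5, MEF2C and HAND2 bind short DNA words near genes of the contractile apparatus and act together at shared enhancers, and with the coactivator myocardin they form the core network that specifies cardiomyocytes in the embryo. The same factors stay on in the adult heart, where GATA4 and the MEF2 proteins are known effectors of hypertrophic signaling. MEF2 activity is restrained by class II histone deacetylases, and GATA4 activity is tuned by FOG cofactors.

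Values are RPKM, read counts divided by exon length in kilobases and by the depth of each library. Reads on genes, recovered from the steps of the RPKM values, ran from 23650137 to 32455214 per mouse, and mitochondrial transcripts took 6.36 to 12.46% of them. Each of the 10 genes had at least 705 reads in every mouse. All 10 of the cardiomyocyte markers fixed for this comparison were detected in every mouse, with summed levels between 15399 and 26000 RPKM. Of 6 atrial markers 2, Nr2f2 and Dkk3, were listed and tested, with summed levels between 2.33 and 5.70 RPKM. Sln, Myl7, Myl4 and Bmp10 were not listed, so these values cannot show how much atrial tissue was present.

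After TAC, hearts of KI mice held less Nkx2-5 and Gata4 RNA than hearts of WT mice, and these were the 2 of the 10 genes that passed. Nkx2-5 was in addition lower after TAC than after sham surgery within the KI genotype. No factor passed the test of TAC in WT mice or between the sham groups. Tests were made with limma on log2(RPKM + 1) over all 12 mice, with the Benjamini-Hochberg adjustment over all 11240 genes and 0.05 as the threshold, and fold changes are on that log2(RPKM + 1) scale, which understates changes of low genes. In whole-heart RNA, fewer cells of a type and less RNA per cell cannot be told apart.

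**Figure D1:**
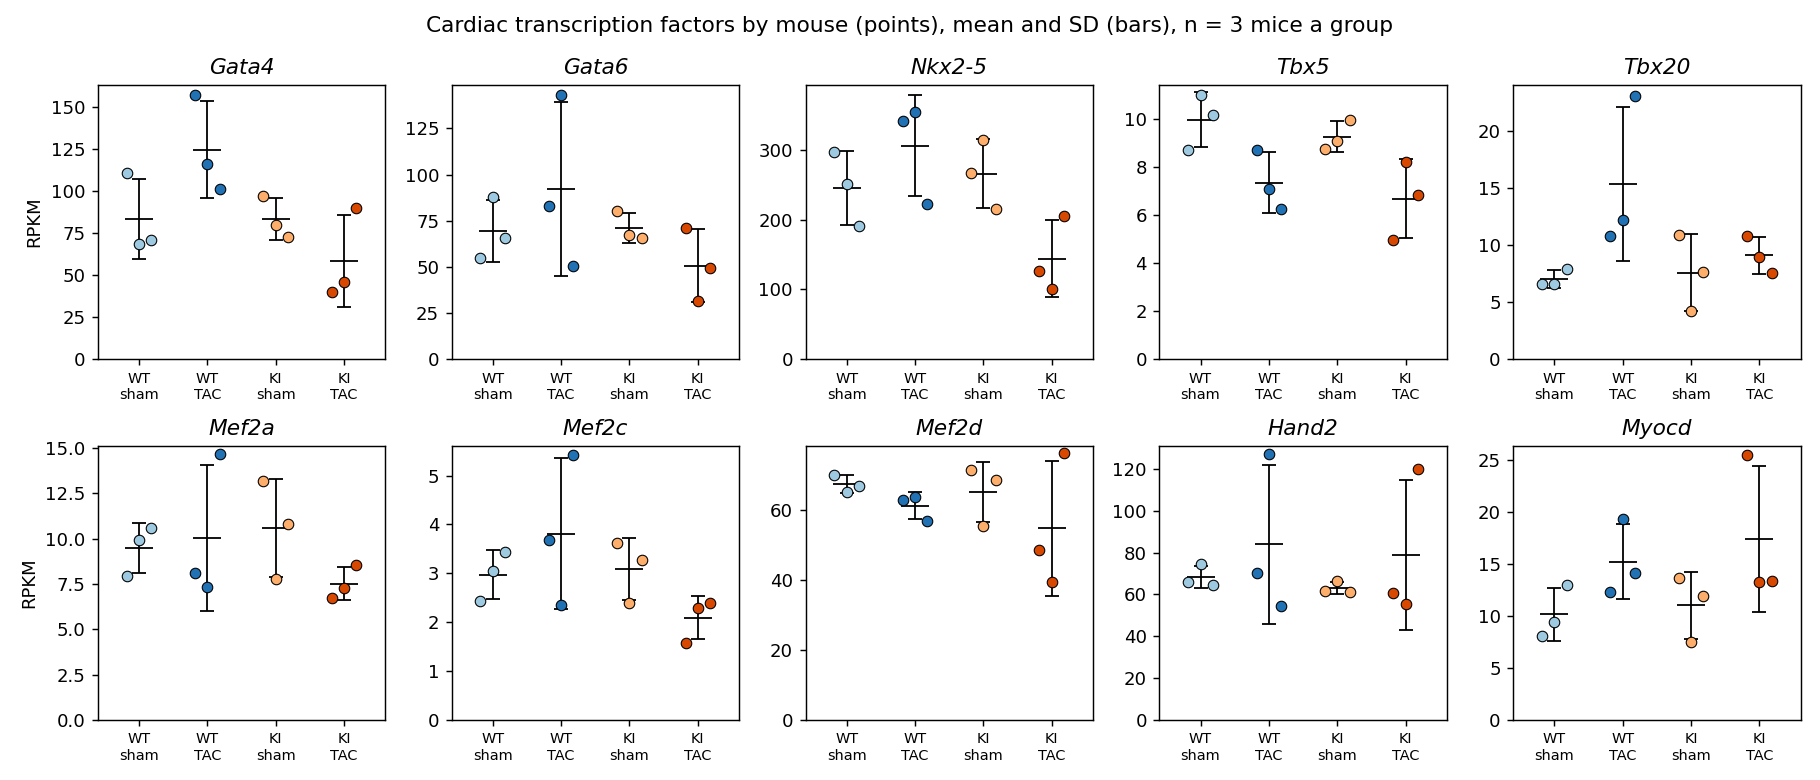
RPKM of the 10 factors in each of 12 mice, by group (WT sham, WT TAC, KI sham, KI TAC); points are mice, bars the mean and SD of 3 mice, and each vertical axis starts at 0. The 3 KI TAC mice lie below the 3 WT TAC mice for Gata4 (89.7 at most against 101 at least) and Nkx2-5 (206 against 223), while Gata6 spans 50.2 to 143 within WT TAC.

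The levels fell into tiers. Nkx2-5 had the highest mean over the 12 mice at 241 RPKM and exceeded Gata4 (87.4 RPKM) in 12 of 12 mice, by 1.47 ± 0.29 (SD) on the log2 scale of RPKM. Gata4, Hand2 (73.6 RPKM), Gata6 (70.8 RPKM) and Mef2d (62.2 RPKM) did not separate from their neighbors: Gata4 exceeded Hand2 in 7 of 12 mice, Hand2 exceeded Gata6 in 4 of 12 and Gata6 exceeded Mef2d in 6 of 12. A gap of 2.26 ± 0.62 on the log2 scale then separated Mef2d from Myocd (13.5 RPKM), and Myocd exceeded Tbx20 (9.78 RPKM) in 11 of 12 mice. Tbx20, Mef2a (9.42 RPKM) and Tbx5 (8.33 RPKM) overlapped, and Mef2c was lowest at 2.99 RPKM, below Tbx5 in 12 of 12 mice. The length divisor matters for this order: the union of annotated exons is 15715 bases for Mef2c and its longest transcript 6277 bases, and for Mef2a the values are 14681 and 5538 bases, so a shorter true transcript would raise the level of either gene.

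Gata4 encodes the zinc finger factor that binds GATA words in many cardiac promoters, and the gene spans chr14:63198922-63271692 on the minus strand of GRCm38. It measured 111, 68.6 and 70.9 RPKM in the 3 WT sham mice and 157, 116 and 101 RPKM in the 3 WT TAC mice, whose ranges overlapped. The KI sham mice gave 97.2, 79.9 and 72.8 RPKM and the KI TAC mice 39.9, 45.7 and 89.7 RPKM, and mouse K7 alone of the KI TAC group lay inside the KI sham range. All 3 KI TAC mice were below all 3 WT TAC mice. The KI TAC level was 0.451 times that of WT TAC (log2 fold change -1.15, SE 0.30, 95% interval -1.78 to -0.51, adjusted p = 0.0276). Within genotypes the changes were 0.58 in WT (adjusted p = 0.216) and -0.59 in KI (adjusted p = 0.166), and the difference between those responses was -1.17 (95% interval -2.07 to -0.27, unadjusted p = 0.0143, adjusted p = 0.235), which did not pass. Without K7 the change of Gata4 with TAC in KI was -0.94 and passed (adjusted p = 0.0213). No other omission of a KI mouse passed, with changes as small as -0.36 and adjusted p-values up to 0.449.

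Nkx2-5 encodes the homeodomain factor of the cardiac lineage, and the gene spans chr17:26838664-26845009 on the minus strand. Its levels were 297, 251 and 191 RPKM in WT sham and 342, 355 and 223 RPKM in WT TAC. In the KI hearts they were 268, 315 and 216 RPKM after sham surgery and 126, 100 and 206 RPKM after TAC. The KI TAC group overlapped with neither the WT TAC nor the KI sham group, although K7 came within 10.0 RPKM of the lowest KI sham mouse. The KI TAC level was 0.460 times that of WT TAC (log2 fold change -1.12, SE 0.29, 95% interval -1.74 to -0.51, adjusted p = 0.0268) and 0.524 times that of KI sham (log2 fold change -0.93, SE 0.29, 95% interval -1.54 to -0.32, adjusted p = 0.0311). In WT the change with TAC was 0.31 (adjusted p = 0.511), and the difference between the genotypes' responses was -1.24 (95% interval -2.11 to -0.37, unadjusted p = 0.00839, adjusted p = 0.207). The interval leaves out 0 for this gene and for Gata4, but neither difference of responses passed the adjustment over all genes.

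These 2 genes are rich in G and C, and libraries differed in how they represented such transcripts. The longest transcript of Nkx2-5 has 67.1% GC, above 99.6% of tested genes, and that of Gata4 57.4% GC, above 86.3%. The fifth of genes with the highest GC content, set against the fifth with the lowest, stood at -0.459 on the log2 scale in K6 and -0.315 in W10 and at 0.384 in W1, relative to the mean of the 12 mice. The same contrast by length, long against short transcripts, separated the TAC groups. It stood at 0.196, 0.292 and 0.197 in WT TAC and at -0.082, -0.227 and -0.218 in KI TAC. In the sham mice it ran from -0.487 (K2) to 0.288 (K1). Each mouse was smoothly adjusted for GC content and transcript length together, an alternative chosen after the data were seen. The part of each alone was not tested. After this adjustment Nkx2-5 gave 295, 331 and 278 RPKM in WT TAC and 148, 140 and 206 RPKM in KI TAC. Gata4 then gave 143, 116 and 102 RPKM in WT TAC and 49.4, 57.2 and 87.4 RPKM in KI TAC. Both genes still passed between the TAC groups, with smaller log2 fold changes of -0.89 for Nkx2-5 (adjusted p = 0.0141) and -0.91 for Gata4 (adjusted p = 0.0321), and Nkx2-5 passed between KI TAC and KI sham at -0.55 (adjusted p = 0.0310). The spread of Nkx2-5 within WT sham narrowed from 191 to 297 RPKM as deposited to 213 to 244 RPKM.

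**Figure D2:**
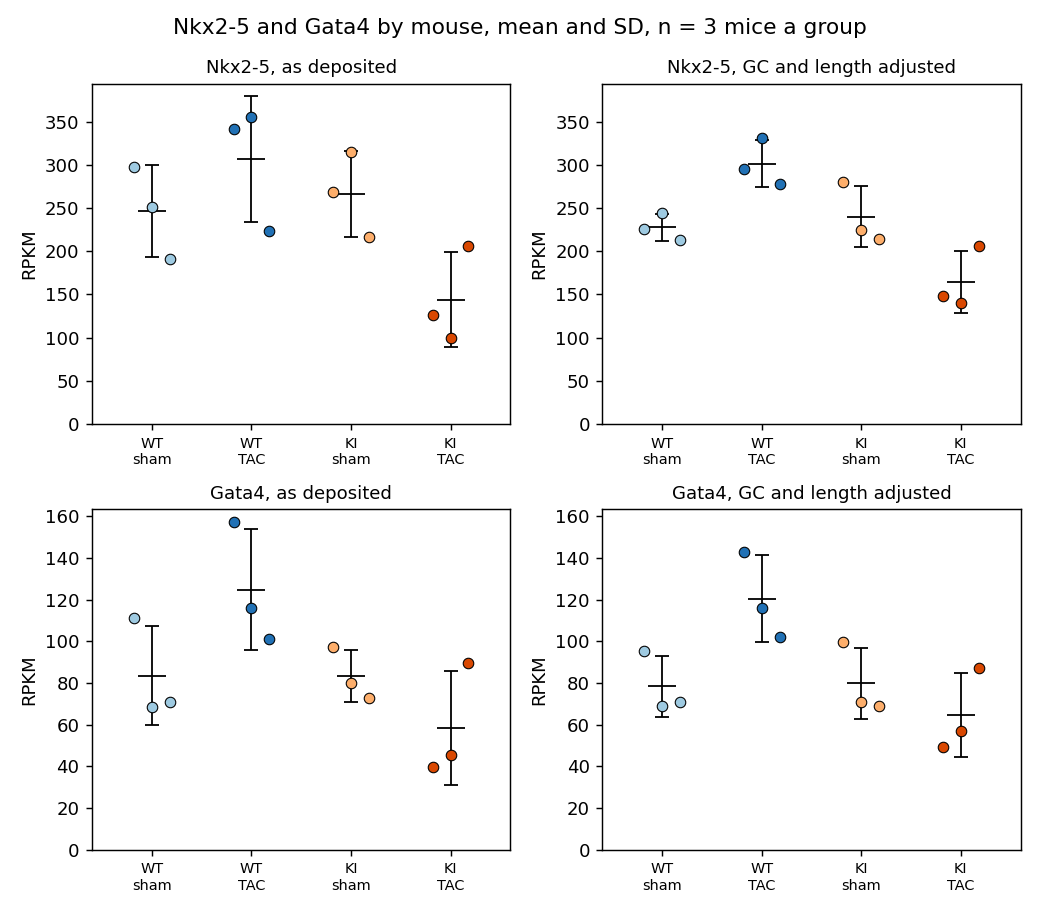
RPKM of Nkx2-5 and Gata4 in each mouse by group, as deposited and after adjustment for GC content and transcript length; points are mice and bars the mean and SD of 3 mice, with axes from 0. After adjustment the 3 KI TAC mice remain below the 3 WT TAC mice for both genes, with Nkx2-5 at 140 to 206 RPKM against 278 to 331 RPKM.

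The calls for Nkx2-5 and Gata4 rested on few mice. Between the TAC groups, Gata4 missed the threshold without W7 (adjusted p = 0.131), K5 (0.0869) or K6 (0.118), and Nkx2-5 without W7 (0.119), W9 (0.0542), K5 (0.0692) or K6 (0.122), with log2 fold changes that stayed between -1.50 and -0.90 for the pair; fitted on the 6 TAC mice alone, the adjusted p-values were 0.0815 and 0.0771. The lower Nkx2-5 after TAC within KI missed the threshold without K1 (0.0677), K2 (0.0973), K5 (0.0883) or K6 (0.123), after median-ratio scaling (log2 fold change -0.80, adjusted p = 0.0546), by limma-voom on recovered reads (-0.80, 0.0502) and relative to cardiomyocyte markers (-0.86, 0.0783).

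The promoter windows below show which binding words of the family stand at the start of its own genes, for Nkx2-5, called lower in both comparisons of KI TAC, and for the genes whose windows hold a GATA or MEF2 word. They run from 250 bases before to 50 bases after a transcription start in RefSeq (GRCm38.p6), are written 5′ to 3′ in the direction of the gene, and have GATA words and the MEF2 consensus in capitals. Windows were found for 6 of the 10 genes.
Nkx2-5, chr17:26841516-26841815, minus strand: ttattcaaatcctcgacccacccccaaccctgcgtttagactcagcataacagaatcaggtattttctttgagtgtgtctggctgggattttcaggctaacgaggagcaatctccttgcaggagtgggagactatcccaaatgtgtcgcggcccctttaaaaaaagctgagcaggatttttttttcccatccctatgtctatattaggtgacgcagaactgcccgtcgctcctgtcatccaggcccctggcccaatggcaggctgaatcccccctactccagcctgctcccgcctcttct
Hand2, chr8:57320733-57321032, plus strand: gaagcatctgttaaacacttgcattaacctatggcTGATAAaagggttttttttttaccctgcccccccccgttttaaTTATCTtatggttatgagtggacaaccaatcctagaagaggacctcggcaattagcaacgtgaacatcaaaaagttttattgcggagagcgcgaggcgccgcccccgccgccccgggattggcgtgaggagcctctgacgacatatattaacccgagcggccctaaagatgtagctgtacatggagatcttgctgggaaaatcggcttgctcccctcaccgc
Mef2a, chr7:67372809-67373108, minus strand: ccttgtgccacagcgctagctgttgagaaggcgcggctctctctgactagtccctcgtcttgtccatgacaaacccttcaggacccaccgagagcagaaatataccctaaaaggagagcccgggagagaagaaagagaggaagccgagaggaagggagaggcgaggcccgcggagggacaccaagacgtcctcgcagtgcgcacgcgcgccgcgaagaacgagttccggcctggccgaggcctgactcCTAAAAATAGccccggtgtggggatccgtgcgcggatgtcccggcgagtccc

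Words were searched on both strands: AGATAA with A or T first and A or G last for GATA factors, AAGTG for NKX2-5, AGGTGTG for T-box factors, CATCTG for the E-box bound by HAND factors, and the MEF2 consensus and the CArG box, bound by serum response factor with myocardin, by name. The Hand2 window held 2 GATA words, whose leftmost bases lie at -215 and -172 from the start, with AAGTG in reverse at -235 and CATCTG at -246. The Mef2a window held the MEF2 consensus with its leftmost base at -2. The windows of Nkx2-5, Mef2d and Tbx20 held none of the words searched. Mef2c has 3 windows, each with AAGTG on one strand or the other, and 1 of them held AGGTGTG and another CATCTG in reverse. A GATA word occurs in 29.8% of the 32851 windows of the RefSeq table, AAGTG in 46.4%, CATCTG in 17.2%, AGGTGTG in 5.8%, the MEF2 consensus in 3.2% and the CArG box in 1.6%, and a match describes letters only.

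Gata6, the second GATA factor of heart muscle, varied most among WT TAC mice, with 82.9, 143 and 50.2 RPKM against 54.6, 88.0 and 65.8 RPKM in WT sham. In KI hearts it measured 80.1, 67.1 and 65.6 RPKM after sham surgery and 70.9, 31.7 and 49.3 RPKM after TAC. Mouse W9 was highest of the 12 and K6 lowest, and the TAC groups overlapped. The log2 fold change of KI TAC against WT TAC was -0.80 (SE 0.35, 95% interval -1.54 to -0.05, adjusted p = 0.142), and it passed at -1.16 without W10 (adjusted p = 0.0498). No other omission of a TAC mouse passed, with values as small as -0.42 and adjusted p-values up to 0.426. Gata6os, transcribed from the opposite strand and overlapping Gata6 by 504 bases, was between 0.870 and 2.63 RPKM in the 12 mice. The methods describe a strand-specific library, but how the counting treated strand is not given in the sources used here. Whether reads of Gata6 and Gata6os were kept apart in the overlap is therefore not known.

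Neither T-box factor passed with TAC in either genotype with the values as deposited, and the T-box factors were not tested against each other. Tbx20, which encodes a T-box factor needed in developing and adult heart muscle, measured 6.58, 6.60 and 7.94 RPKM in WT sham and 10.8, 12.2 and 23.1 RPKM in WT TAC, without overlap. The log2 fold change was 0.96 (SE 0.30, 95% interval 0.32 to 1.60), the largest among the 10 genes in that comparison, and its adjusted p of 0.0529 missed the threshold. It measured 10.9, 4.20 and 7.66 RPKM in KI sham and 10.8, 8.91 and 7.56 RPKM in KI TAC, where the change was 0.30 (adjusted p = 0.499). The KI TAC mice all lay below the WT TAC mice for Tbx20, by -0.64 (adjusted p = 0.166), though K5 came close to W7. Mouse W10 was highest of the 12 for Tbx20 and also for Mef2a and Mef2c, 3 genes with 42.3%, 42.0% and 40.8% GC. It was 1 of the 2 mice in which GC-rich transcripts stood lowest. After the GC and length adjustment the change of Tbx20 with TAC in WT was 0.69 (adjusted p = 0.0572). Relative to cardiomyocyte markers it was 1.46 and passed (adjusted p = 0.00828). In that setting 5279 of 11240 genes were called, 97.7% of them higher.

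Tbx5 encodes the T-box partner of GATA4 and NKX2-5. It measured 8.73, 11.0 and 10.2 RPKM in WT sham and 8.73, 7.09 and 6.24 RPKM in WT TAC, where the highest TAC mouse met the lowest sham mouse to within the third digit. In KI hearts it was 8.75, 9.11 and 9.98 RPKM after sham surgery and 4.98, 8.24 and 6.85 RPKM after TAC, without overlap. The change with TAC was -0.40 in WT (95% interval -0.80 to -0.00, adjusted p = 0.176) and -0.44 in KI (95% interval -0.84 to -0.04, adjusted p = 0.0996), and neither passed; the WT value was 0.11 relative to cardiomyocyte markers. The responses of the genotypes differed by -0.04 (95% interval -0.60 to 0.52).

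The 3 MEF2 genes, MADS-box factors that respond to calcium signaling, did not pass in any comparison with the values as deposited in all 12 mice. Each passed between the TAC groups relative to cardiomyocyte markers. In that setting 6482 of 11240 genes were called and the median of all genes was -0.60. Mef2c measured 2.43, 3.05 and 3.44 RPKM in WT sham, 3.68, 2.34 and 5.42 in WT TAC, 3.61, 2.39 and 3.28 in KI sham and 1.58, 2.29 and 2.40 in KI TAC. The KI TAC range lay below 2 of the 3 WT TAC mice and overlapped with W9, and the log2 fold change of KI TAC against WT TAC was -0.60 (SE 0.22, 95% interval -1.07 to -0.13, adjusted p = 0.0898), which became -0.84 and passed without W9 (adjusted p = 0.0192). No other omission of a TAC mouse passed, with values as small as -0.37 and adjusted p-values up to 0.276. Mef2d, the most abundant MEF2 gene here, was tight in WT, with 70.1, 65.1 and 67.0 RPKM after sham surgery and 63.0, 63.9 and 57.0 RPKM after TAC, ranges that did not overlap but differed by only -0.14 (adjusted p = 0.722). In KI it was 71.5, 55.4 and 68.5 RPKM in sham and 48.7, 39.3 and 76.4 RPKM in TAC, where K6 was the lowest and K7 the highest of all 12 mice. Without K7 the change of Mef2d with TAC in KI was -0.56 and passed (adjusted p = 0.0485). No other omission of a KI mouse passed, with changes as small as -0.08 and adjusted p-values up to 0.828. After the GC and length adjustment the change was -0.04. Mef2a measured 7.93, 9.94 and 10.6 RPKM in WT sham and 8.10, 7.35 and 14.7 RPKM in WT TAC. In KI it measured 13.2, 7.80 and 10.8 RPKM in sham and 6.75, 7.26 and 8.53 RPKM in TAC, with a log2 fold change of -0.43 (95% interval -0.95 to 0.09, adjusted p = 0.219). Lysmd4, which overlaps Mef2a on the opposite strand over 76168 bases of genomic span, was between 1.47 and 4.59 RPKM. It was itself called lower with TAC in KI (log2 fold change -0.64, adjusted p = 0.0421).

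Hand2, a basic helix-loop-helix factor of the ventricles and outflow tract, had 66.0, 74.4 and 64.5 RPKM in WT sham and 61.7, 66.5 and 61.1 RPKM in KI sham. After TAC the values were 70.5, 127 and 54.4 RPKM in WT and 60.7, 55.5 and 120 RPKM in KI, so that 1 mouse in each TAC group, W9 and K7, stood far above the rest of its group. The log2 fold changes with TAC were 0.21 in WT (adjusted p = 0.701) and 0.23 in KI (adjusted p = 0.624), and each turned negative when that mouse was left out (-0.14 without W9 and -0.12 without K7). Hand2os1, which overlaps Hand2 by 3251 bases of genomic span on the opposite strand, was between 1.22 and 3.30 RPKM.

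Myocd encodes myocardin, the coactivator of serum response factor in heart and smooth muscle. It measured 8.09, 9.38 and 13.0 RPKM in WT sham, 12.3, 19.3 and 14.1 in WT TAC, 13.7, 7.46 and 11.9 in KI sham and 25.5, 13.3 and 13.4 in KI TAC. TAC and sham ranges overlapped in both genotypes, with 1 sham mouse of each (W3 and K1) inside the range of its TAC group. The log2 fold change with TAC was 0.54 in WT (95% interval -0.06 to 1.15, adjusted p = 0.225) and 0.59 in KI (95% interval -0.01 to 1.19, adjusted p = 0.144). With the values as deposited, Myocd was the only gene of the 10 whose mean log2(RPKM + 1) was higher in KI than in WT after TAC, by 0.14 (95% interval -0.46 to 0.74), and it turned to -0.15 without K5 and to -0.34 relative to cardiomyocyte markers.

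**Figure D3:**
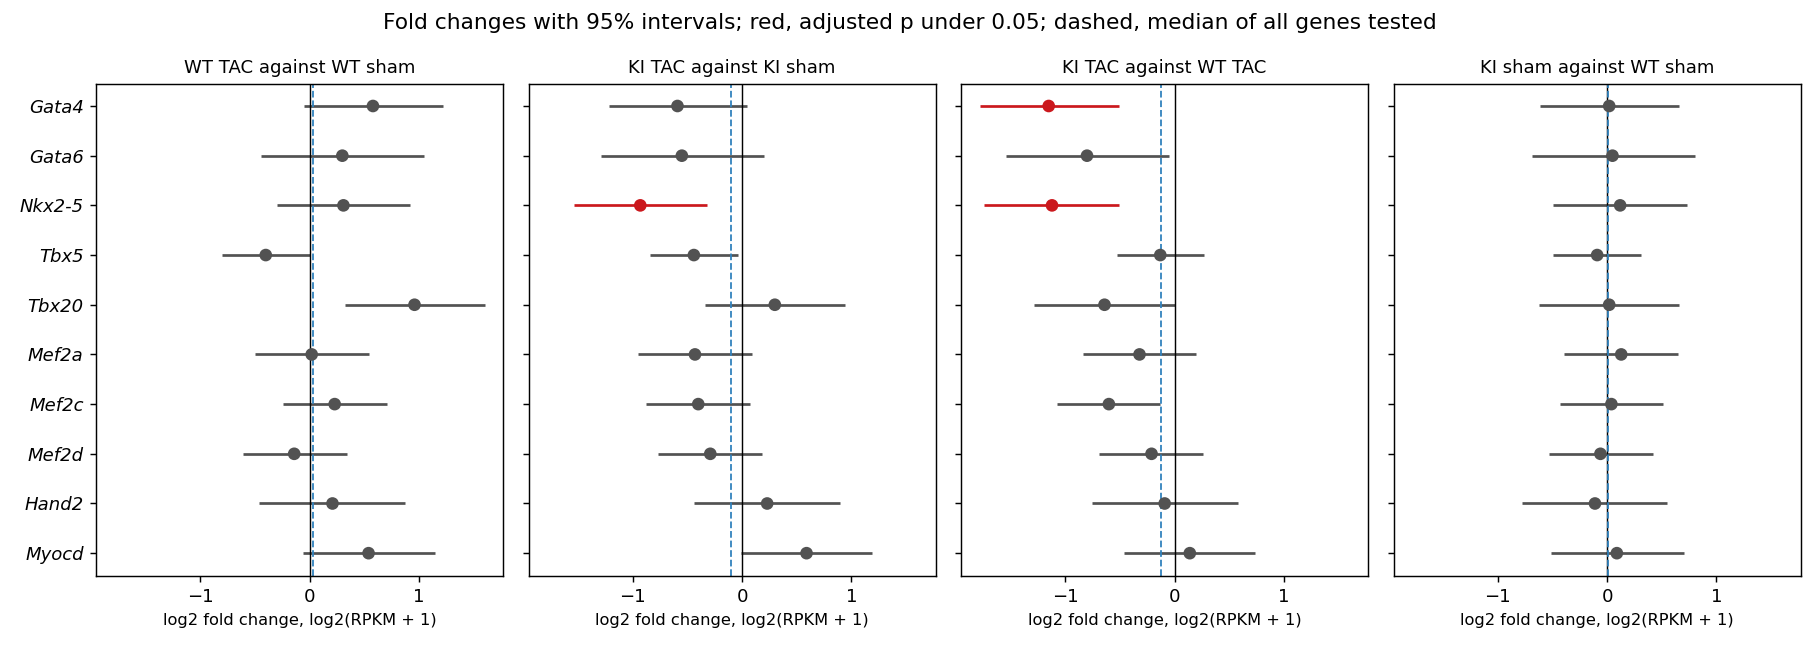
Log2 fold changes of the 10 factors on the log2(RPKM + 1) scale in 4 comparisons, with 95% intervals; red marks an adjusted p under 0.05 and the dashed line the median of all 11240 genes. Gata4 (-1.15) and Nkx2-5 (-1.12) are red for KI TAC against WT TAC and Nkx2-5 (-0.93) for KI TAC against KI sham, while all 10 lie between -0.11 and 0.13 between the sham groups.

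Counted over the 10 genes, 2 were lower and 0 higher at the threshold for KI TAC versus WT TAC, beside 11.0% of all tested genes called in that comparison and 8.13% called lower. For TAC within KI 1 was lower and 0 higher, beside 23.3% called and 14.7% called lower among all genes. Whether the factors were called more or less often than other genes was not tested. For TAC within WT the count was 0 beside 11.6%, for genotype after sham surgery 0 beside 0.0178%, and for the interaction 0 beside 0%. At an unadjusted p under 0.05, 2 of the 10 factors passed for TAC within WT, beside 27.9% of all tested genes, and 2 for TAC within KI, beside 36.8%. The counts were 4 for genotype after TAC beside 30.3%, 0 for genotype after sham surgery beside 0.329% and 2 for the interaction beside 14.8%.

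Groups did not overlap for 3 of the 10 factors between the WT groups (Mef2d, Tbx5 and Tbx20), for 2 between the KI groups (Nkx2-5 and Tbx5), for 3 between the TAC groups (Gata4, Nkx2-5 and Tbx20) and for 0 between the sham groups. Among all tested genes, groups did not overlap for 35.1%, 38.3%, 29.5% and 3.27% in the same order. With 3 mice against 3 an exact two-sided permutation test of a single gene cannot go below 0.1.

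The median log2 fold change of the 10 factors was -0.46 for genotype after TAC, -0.42 for TAC within KI, 0.27 for TAC within WT and 0.03 for genotype after sham surgery. The medians of all tested genes were -0.122, -0.102, 0.035 and 0.007, so relative to the median gene Gata4 stood at -1.03 between the TAC groups and Nkx2-5 at -0.83 between the KI groups. For genotype after TAC the median of the 10 was -0.23 after the GC and length adjustment and -0.94 relative to cardiomyocyte markers, and for TAC within WT the latter gave 0.78. Of the 10, 9 were lower in KI after TAC before any threshold, as were 7 after median-ratio scaling, which turned Hand2 to 0.07 and Tbx5 to 0.00, and 6 after the GC and length adjustment, which turned Mef2d as well, to 0.05. The 3 comparisons with TAC share mice, so their values are not independent of each other.

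Cell type markers moved with the TAC groups. The cardiomyocyte markers had a mean deviation from the 12-mouse mean of -0.50 to -0.30 on the log2(RPKM + 1) scale in WT TAC and of -0.14 to 0.35 in KI TAC, with 4 of 10 called higher in KI TAC (Ckm, Tnni3, Myl2 and Mb) and summed levels of 15399 to 25079 RPKM in WT TAC and 19007 to 26000 RPKM in KI TAC. In the sham mice that mean deviation was 0.03 to 0.30 in WT and -0.03 to 0.34 in KI. With TAC in WT 8 of the 10 lay lower, with a median of -0.63, and Myh6, Ckm and Mb were called. With TAC in KI the median was 0.00 and Pln was called lower. Among all 11240 tested genes, 328 were called higher and 914 lower between the TAC groups. Markers of macrophages and other leukocytes summed to 135 to 196 RPKM in WT TAC and to 77.9 to 105 RPKM in KI TAC, with 3 of 6 tested called lower in KI TAC. Fibroblast markers summed to 483 to 856 RPKM and 464 to 668 RPKM, but their mean deviation was -0.17 to 1.00 in WT TAC and -0.55 to -0.02 in KI TAC. Of the 8 fibroblast markers 7 were lower before any threshold (median log2 fold change -0.71) and 1, Fn1, was called lower. Gsn, singled out after its values were seen, was the 1 that lay higher, with means of 247 RPKM in WT TAC and 412 RPKM in KI TAC. No tested marker of these 3 lists was at 0 in any mouse. Between the TAC groups the other cardiomyocyte markers were not called. Of the 10, 3 lay lower in KI TAC, down to -0.28, beside a list median of 0.71. Of 4 ventricular myocyte markers 1 was called higher (Myl2) and 1 lower (Irx4). Relative to the cardiomyocyte markers of the same mouse, the log2 fold changes between the TAC groups were larger, at -1.63 for Gata4 and -1.60 for Nkx2-5 (adjusted p = 0.00337 for each), where the median of all genes was -0.60 and 6482 of them were called. The part of leukocytes and fibroblasts in the lower Gata4 and Nkx2-5 was not tested.

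Other transcription factors of the heart, 21 of which were tested from a list of 30 symbols, were called lower in 5 cases and higher in 0 between KI TAC and WT TAC. Among all tested genes 8.13% were called lower in that comparison. Irx4, the ventricular Iroquois factor, fell furthest, from 41.3 ± 6.21 RPKM in WT TAC to 13.6 ± 5.74 RPKM in KI TAC (SD, n = 3 mice each), a log2 fold change of -1.60 (SE 0.26, adjusted p = 0.00582), and within KI it changed with TAC by -1.32 (adjusted p = 0.00339). Irx5 (-1.10, adjusted p = 0.0285) and Irx3 (-0.80, adjusted p = 0.0478), Iroquois factors known for patterning cardiac repolarization and conduction, were lower between the TAC groups, as was Nr2f1 (-0.55). Irx3, Irx4 and Irx5 have 62.5%, 60.9% and 65.4% GC. After the GC and length adjustment Irx4 (-1.33, adjusted p = 0.0101) and Irx5 (-0.74, adjusted p = 0.0433) still passed, while Irx3 (-0.48, adjusted p = 0.125) and Nr2f1 (adjusted p = 0.257) did not. Irx3 also missed the threshold with no filter (adjusted p = 0.0503), after median-ratio scaling (0.121), by limma-voom (0.120) and in the 6 TAC mice alone (0.0975). Nr2f1 also missed it after quantile normalization (0.116) or median-ratio scaling (0.0517) and in the 6 TAC mice alone (0.0934). Irx5 missed the threshold after median-ratio scaling (adjusted p = 0.0674), by limma-voom (0.0663), in the fit of the 6 TAC mice alone (0.0872) and without W7 (0.135), W9 (0.0582) or K6 (0.130). Irx4 passed without each of the 6 TAC mice in turn, Nr2f1 without 4 of them and Irx3 without 1. Between KI TAC and KI sham 4 of the 21 were lower, beside 14.7% of all tested genes. Among them were Irx4, the Notch target Hey1 (-0.76) and Nr2f1 (-0.56). Hey1 and Irx4 kept these calls in all 8 other settings and whichever KI mouse was left out, but Nr2f1 missed the threshold after the GC and length adjustment (-0.21, adjusted p = 0.294) and quantile normalization (0.0621), relative to cardiomyocyte markers (0.183) and without K6 (0.0545). Between WT TAC and WT sham only Zeb2 passed, higher by 0.76 and by 0.45 after the GC and length adjustment (adjusted p = 0.0238). That adjustment gave 2 higher and 1 lower of the 21, and scaling to cardiomyocyte markers 11 higher and 0 lower. Under that scaling 5279 of all tested genes were called, 97.7% of them higher. The median of the 21 between the TAC groups was -0.47, near the -0.46 of the 10 factors, and became -0.18 after the GC and length adjustment and -0.95 relative to cardiomyocyte markers. The 5 lower calls became 2 after median-ratio scaling or the GC and length adjustment, 1 in the fit of the 6 TAC mice alone and 18 relative to cardiomyocyte markers. In that last setting 6482 of the 11240 tested genes were called, 1.65% of them higher.

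Cofactors and repressors of the same network, 22 tested of 23 symbols, gave 4 lower and 1 higher between KI TAC and WT TAC, which became 2 and 2 after median-ratio scaling, 3 and 3 after the GC and length adjustment, 1 and 0 in the fit of the 6 TAC mice alone and 16 and 1 relative to cardiomyocyte markers. Among all tested genes 8.13% were called lower with the values as deposited, and 6482 of 11240 were called relative to cardiomyocyte markers. The lower genes were Smarca4 (-0.97), the ATPase of the BAF chromatin remodeler; Carm1 (-0.83), a coactivating arginine methyltransferase; Zfpm1 (-0.79), which encodes the GATA cofactor FOG1; and Trim32 (-0.49). Leaving out each of the 6 TAC mice in turn, Smarca4 and Carm1 kept the call without 4 of them and Zfpm1 and Trim32 without 2. Trim32 in addition missed the threshold with no filter (adjusted p = 0.0526), after quantile normalization (0.0555) or median-ratio scaling (0.0568), by limma-voom (0.0595) and in the fit of the 6 TAC mice alone (0.133). Hopx, an atypical homeodomain protein without DNA binding that restrains serum response factor, was higher by 1.03 (adjusted p = 0.0224), with 52.1 ± 16.3 RPKM in WT TAC and 105 ± 18.9 RPKM in KI TAC (SD, n = 3 mice each), after falling by 0.98 with TAC in WT (adjusted p = 0.0203). The higher Hopx missed the threshold without W7 (adjusted p = 0.114), without K6 and in the fit of the 6 TAC mice alone (0.0670), and its fall in WT did so without W1 (0.0758), W2 (0.0534), W7 (0.103) or W9 (0.0660) and relative to cardiomyocyte markers (0.0511). Between the TAC groups Zfpm1 did not pass after the GC and length adjustment (-0.34, adjusted p = 0.125). It also missed the threshold after median-ratio scaling (0.0772), by limma-voom (0.0748) and in the fit of the 6 TAC mice alone (0.128). Csrp3, which encodes the muscle LIM protein, rose with TAC in WT (1.17) and in KI (1.78). In KI 6 of the 22 genes were lower after TAC, beside 14.7% of all tested genes. They were led by Zfpm1 (-0.84), Mapk14 (-0.75), Camta2 (-0.64) and Smarca4 (-0.63). Of these 4, Mapk14 alone passed after the GC and length adjustment. The 6 lower genes became 3 after median-ratio scaling or by limma-voom, 2 in the fit of the KI groups alone and after the GC and length adjustment, and 0 relative to cardiomyocyte markers. With 1 of the 6 KI mice left out, Zfpm1 kept its call in 5 of 6 cases, Mapk14 and Camta2 in 3 and Smarca4 in 2.

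**Figure D4:**
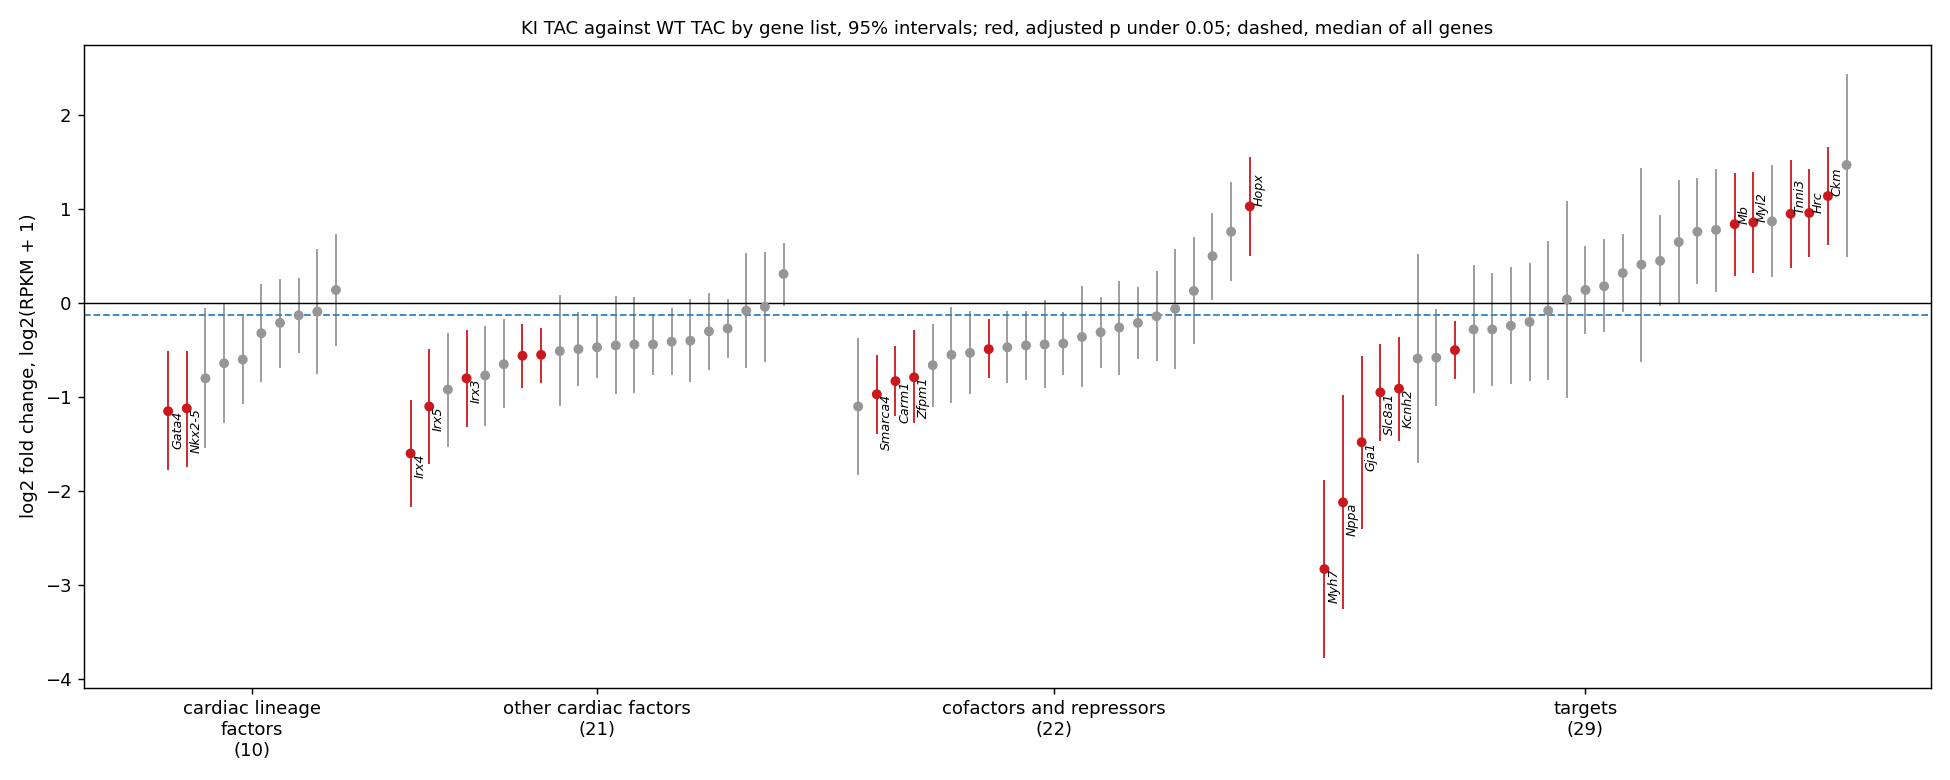
Log2 fold changes of KI TAC against WT TAC on the log2(RPKM + 1) scale with 95% intervals, 1 point per gene, for the 10 cardiac lineage factors, 21 other cardiac transcription factors, 22 cofactors and repressors and 29 targets; red marks an adjusted p under 0.05, the dashed line the median of all tested genes, -0.122, and names stand beside the larger called changes. The called transcription factors, led by Irx4 (-1.60), all lie below 0, whereas called targets lie on both sides, from Myh7 (-2.83) to Ckm (1.14).

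Known targets of these factors did not move as a block. All 29 were tested, and between KI TAC and WT TAC 5 were higher and 6 lower, beside 11.0% called among all tested genes. Their median was 0.14. The balance of higher and lower depended on scaling. The median was -0.14 after quantile normalization (2 higher, 3 lower) and -0.34 relative to cardiomyocyte markers (2 higher, 10 lower). The counts were 4 and 1 in the fit of the 6 TAC mice alone and 7 and 2 after the GC and length adjustment. Every cardiomyocyte marker but Actn2 is itself on the list of targets, so scaling to these markers sets targets partly against themselves. The same scaling gave the values of the 10 factors relative to cardiomyocyte markers. Myh7, the slow myosin heavy chain, was lower by -2.83 (adjusted p = 0.00492) and Nppa, atrial natriuretic peptide, by -2.12 (adjusted p = 0.0251), followed by Gja1, the main gap junction protein of the ventricle (-1.48). Myh7 measured 26.5 to 33.5 RPKM in KI sham and 39.0 to 145 RPKM in WT sham, without overlap before TAC, a log2 fold change of -0.99 between the sham groups that did not pass (unadjusted p = 0.0421, adjusted p = 1.00). Leaving out each of the 6 TAC mice in turn, Myh7 kept its call each time, but Nppa lost it without W7 (adjusted p = 0.103), W10 (0.0776), K5 (0.0792) or K6 (0.102) and Gja1 without the same 4 mice (0.111 to 0.135). In the fit of the 6 TAC mice alone the adjusted p was 0.0682 for Nppa and 0.0693 for Gja1, and Gja1 missed the threshold after the GC and length adjustment (log2 fold change -1.35, adjusted p = 0.0556) and quantile normalization (-1.46, 0.0518) too. With 1 TAC mouse left out, the lost calls had log2 fold changes of -2.02 to -1.70 for Nppa and -1.49 to -1.08 for Gja1. Ckm, muscle creatine kinase, was higher by 1.14, and Hrc, a calcium-binding protein of the sarcoplasmic reticulum, by 0.96. Ckm missed the threshold without W7 (adjusted p = 0.0586) or K6 (0.0695), and Hrc without W7 (0.0851) or K6 (0.0900). With TAC in WT, 9 targets rose and 5 fell, beside 11.6% called among all tested genes. They were led by Nppb (3.26), Xirp2 (3.21), Nppa (3.16), Ankrd1 (2.83) and Acta1 (2.70). The counts were 7 and 7 after median-ratio scaling, 10 and 7 after the GC and length adjustment and 15 and 3 relative to cardiomyocyte markers, and these 5 genes passed in each of the 8 other settings. With TAC in KI, 7 rose and 2 fell, beside 23.3% called among all tested genes. They were led by Nppb (3.91), Xirp1 (3.17), Xirp2 (2.66) and Ankrd1 (2.63) and, on the falling side, by the potassium channel gene Kcnh2 (-1.78). Nppa measured 111 ± 73.5 RPKM in KI TAC and 44.5 ± 19.2 RPKM in KI sham (SD, n = 3 mice each), and Acta1, skeletal alpha-actin, rose by 1.66 in KI (adjusted p = 0.0328). That call for Acta1 was lost without K2 (adjusted p = 0.0987), K3 (0.138), K6 (0.0740) or K7 (0.118) and after quantile normalization (0.0710), whereas Nppb, Xirp1, Xirp2, Ankrd1 and Kcnh2 kept theirs within KI whichever of the 6 mice was left out.

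The genes whose levels over the 12 mice were most like those of Nkx2-5, by the root mean square difference of log2(RPKM + 1) after centering each gene, were Mocs3 (0.16, 62.2% GC) and Gtpbp3 (0.17, 57.3% GC), enzymes of sulfur transfer and of mitochondrial tRNA modification. For Gata4 they were Ahnak2 (0.16, 58.0% GC) and Fam171a2 (0.17, 66.8% GC). Nkx2-5 and Gata4 differed from each other by 0.27, beside a median of 0.56 over all tested genes for Nkx2-5 and 0.55 for Gata4.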

How the data were processed

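The authors trimmed reads with Trimmomatic 0.39, aligned them to GRCm38 with HISAT2 2.2.1 and counted with HTSeq 0.6.1, and deposited RPKM values per gene and mouse made with edgeR 3.18.1. Per the labels, poly(A) RNA of RIN above 7 was used. Whole reads were recovered from RPKM steps and exon lengths of GENCODE M21, and 96.2 to 98.1% of low values were whole within 0.05 (at most 9.45% with a wrong step). Genes that reached 1 RPKM in 3 or more mice were tested in limma 3.58.1 (R 4.3.3) with lmFit and a trended eBayes on log2(RPKM + 1), pseudocount 1, all 12 mice in 4 groups, with 5 comparisons. The genes and lists were chosen with earlier results of these data known. Named are the 10 genes, up to 5 called genes per list and comparison with the largest change, and the 2 genes most like each called factor, passing over symbols of the Gm and Rik kind. A gene that this rule would name is not reported here. Replicates are separate mice. Alternatives were pseudocount 0.1, no filter, quantile normalization, median-ratio scaling, limma-voom on recovered reads, scaling to cardiomyocyte markers, fits of the groups compared alone, omission of each mouse, a replicate block for the sham groups and, added later, adjustment for GC content and length (lowess span 0.3). Of the marker symbols, 0 of 5 for adipocytes and 0 of 6 for skeletal muscle matched a listed gene, so these lists gave no values.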

Additional observations from a re-analysis of the deposited data

How the results depend on the processing

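Called genes numbered 1299, 2620, 1242, 2 and 0 for TAC within WT, TAC within KI, genotype after TAC, genotype after sham surgery and the interaction, which had 1668 genes at an unadjusted p under 0.05. Scaling to cardiomyocyte markers moved the first 3 to 5279, 1451 and 6482 and the called factors to 5, 0 and 8, from 0, 1 and 2. Fits of the compared groups alone gave 216 genes and 0 factors for genotype after TAC and 5 genes after sham surgery. Median-ratio scaling and limma-voom on recovered reads gave 0 factors for TAC within KI, and the cause was not tested. The share of calls that were higher was 26.4% for genotype after TAC, 36.8% for TAC within KI and 60.2% for TAC within WT, and 51.6%, 51.5% and 51.1% after median-ratio scaling. Leaving out 1 mouse gave 596 (without W7) to 1525 (without W10), 1453 (without K3) to 2741 (without K7), 162 (without W7) to 1822 (without K7), 2 to 2 and 0 to 240 (without W9) called genes, and 0 to 0, 0 to 3, 0 to 3, 0 to 0 and 0 to 0 called factors. The interaction called 182 genes without K7 and 8 without W10.

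The sham groups share mouse numbers 1 to 3. With the number as a replicate block, 0 genes were called between the sham groups, and 0 factors. Deviations of same-numbered mice correlated at -0.225, -0.302 and 0.44, and those of mice with different numbers at -0.35 to 0.434. Deviations from a mean of 3 mice sum to 0 in each group, so this check cannot decide whether the numbers pair mice. The main fit took the numbers as names.

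Under quantile normalization the sign turned for TAC within WT Mef2a (-0.01) and for the interaction Tbx5 (0.09) and Hand2 (-0.01). Under median-ratio scaling the sign turned for TAC within WT Mef2a (-0.01), for genotype after TAC Tbx5 (0.00) and Hand2 (0.07) and for the interaction Mef2d (0.01) and Tbx5 (0.10). Under limma-voom on recovered reads the sign turned for TAC within WT Mef2a (-0.02), for genotype after TAC Tbx5 (0.01) and Hand2 (0.07) and for the interaction Mef2d (0.01) and Tbx5 (0.12). Under GC and length adjustment the sign turned for TAC within WT Mef2a (-0.19) and Mef2c (-0.02), for genotype after TAC Mef2d (0.05), Tbx5 (0.03) and Hand2 (0.12), for genotype after sham surgery Mef2c (-0.03) and Tbx20 (-0.03) and for the interaction Mef2d (0.08) and Tbx5 (0.10). Under scaling to cardiomyocyte markers the sign turned for TAC within WT Mef2d (0.37) and Tbx5 (0.11), for genotype after TAC Myocd (-0.34), for genotype after sham surgery Gata4 (-0.02), Mef2c (-0.00) and Tbx20 (-0.02) and for the interaction Hand2 (-0.41) and Myocd (-0.39).

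Each sign that turned belongs to a change that did not pass, and none passed after turning.

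Leaving out each mouse in turn gave ranges that crossed 0 for TAC within WT Gata6 -0.08 to 0.67, Mef2a -0.26 to 0.20 and Hand2 -0.14 to 0.47; for TAC within KI Tbx20 -0.02 to 0.57 and Hand2 -0.12 to 0.44; for genotype after TAC Tbx5 -0.28 to 0.04, Hand2 -0.43 to 0.26 and Myocd -0.15 to 0.31; for genotype after sham surgery Gata4 -0.10 to 0.24, Gata6 -0.10 to 0.23, Mef2a -0.03 to 0.31, Mef2c -0.06 to 0.17, Mef2d -0.13 to 0.05, Nkx2-5 -0.05 to 0.27, Tbx20 -0.26 to 0.34 and Myocd -0.07 to 0.33; for the interaction Mef2d -0.42 to 0.05, Tbx5 -0.18 to 0.13, Hand2 -0.32 to 0.37 and Myocd -0.25 to 0.22.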

Other observations

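Neutrophil markers, 3 of 5 of which were tested, summed to between 0.395 and 1.27 RPKM in the sham mice and to 3.69 to 9.87 RPKM in WT TAC and 4.18 to 20.3 RPKM in KI TAC, with S100a8 at 0 in at least 1 WT sham mouse and S100a9 in at least 1 KI sham mouse. S100a9, a calcium-binding protein of neutrophils, rose with TAC by 1.58 in WT and 2.77 in KI on the log2(RPKM + 1) scale. Of 8 endothelial markers, Fabp4, a fatty acid carrier of capillary endothelium, was higher in KI TAC by 1.80 against WT TAC (adjusted p = 0.00461), and the other 7 did not pass. Of 7 mural cell markers, Cnn1, smooth muscle calponin, rose by 1.16 with TAC in WT and was lower by -0.98 for KI TAC against WT TAC (adjusted p = 0.0261). Erythroid markers summed to 74.8 to 114 RPKM in WT TAC and 97.7 to 257 RPKM in KI TAC, and 0 of 5 passed. Of the endocardial markers 2 of 3 and of the epicardial markers 1 of 5 were tested, and 0 passed.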
